A study of Mus musculus with 6 samples.

Results

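A pair of liver enzyme families that oxidise drugs and metabolites outside the cytochrome P450 system were followed in primary mouse hepatocytes treated with TNF: the aldehyde oxidases with their relative xanthine dehydrogenase and their activating sulfurase (Aox1, Aox3, Xdh and Mocos), and the flavin monooxygenases (Fmo1, Fmo2, Fmo4 and Fmo5). The 8 genes were chosen by name from the 19764 genes of the table. Aox3 and Fmo5 were placed first because of their lower levels with TNF in these same libraries. Their difference between the groups is therefore given as a description. Calls and ranks that hold them are printed but are not evidence, since both were picked on these values. All 8 passed the filter on low reads.

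Hepatocytes from Bl6/N mice were starved for 16 h in medium with 5 mM glucose. All cells then received, for 8 h, 1 µM corticosterone, the glucocorticoid receptor ligand, and 10 µM WY-14643, a ligand of PPARα, so both groups carried this fasting-like treatment. The Control group (3 libraries) received vehicle alongside, and the TNF group (3 libraries) received 1 ng/ml TNF, an inflammatory cytokine. Cells without corticosterone and WY-14643 were not analysed here, so the comparison concerns TNF on top of both ligands. Whether the replicates are separate animals or cultures is not in the labels. P-values therefore measure the spread between these libraries, or, where libraries are paired by replicate number, the spread of their paired differences. Either may be technical.

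Aldehyde oxidases are cytosolic enzymes that carry FAD, iron-sulfur clusters and a molybdenum cofactor, and oxidise aldehydes and nitrogen-containing rings, among them many drugs. Xanthine dehydrogenase has the same build and turns hypoxanthine into xanthine and then uric acid. Both need the sulfurase encoded by Mocos, which places the sulfur on their molybdenum cofactor. Flavin monooxygenases sit in the endoplasmic reticulum and use NADPH and oxygen to add oxygen to nitrogen or sulfur atoms of their substrates.

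The libraries held between 17612060 and 25114289 reads over genes. Levels are CPM (reads relative to library size, on the authors' scaling), and changes are differences of log2(CPM + 1), TNF minus Control, which understate the change of low genes. "Unpaired" denotes a limma fit with the group only, and "blocked" a limma fit that also holds the replicate number, which same-numbered Control and TNF libraries shared. The unpaired fit was the planned main test, and the blocked fit was planned as an alternative to it. "Rose" and "fell" are used of genes with a Benjamini-Hochberg adjusted p under 0.05 over all 12293 genes tested in the blocked fit. The treatment was visible in 8 of 8 TNF response genes, which all rose, with Icam1 at 44.7 ± 7.81 and 173 ± 24.2 CPM (SD, n = 3). Alb, the albumin gene that marks hepatocytes, stood at 34932 ± 9946 CPM in Control. Of 9 hepatocyte markers tested, 5 fell and none rose (3 fell with no filter on low reads). Over all tested genes 11.2% fell and 9.4% rose. The 5 were led by Ahsg (log2 -0.60), Hnf4a (-0.43) and Apoa1 (-0.26), the same direction as Aox3, Fmo5 and Fmo1. Alb (-0.06), Serpina1a (-0.04), Apob (-0.10) and Cyp2e1 (-0.11) did not pass the blocked fit. In the unpaired fit 0 of the 9 passed, and 2 were lower before adjustment (p under 0.05), against 0 and 3 by unpaired limma-voom. Replicate 1 stood apart in both groups: the summed level of 9 hepatocyte markers was 36477 and 34546 CPM there, against 49164 to 54924 CPM in the other 4 libraries. Alb made up most of this sum, with Control means of 34932 CPM for Alb and 48606 CPM for the sum, so the sum mainly follows that gene. The summed level of 12 macrophage markers was 0.331 to 1.31 CPM in Control and 0.215 to 1.08 CPM with TNF, and none of the 12 had enough reads to be tested. The 10 endothelial markers summed to 97.6 to 177 CPM and 95.6 to 172 CPM, the 9 stellate and fibroblast markers to 19.3 to 68.9 and 20.5 to 46.7 CPM, and the 7 cholangiocyte markers to 37.9 to 46.7 and 42.2 to 63.9 CPM, in Control and TNF in that order. Among these, the endothelial marker Oit3 (log2 0.54) and the cholangiocyte marker Sox9 (0.58) rose, and Stab2 (-0.19), Reln (-0.38) and Pkhd1 (-0.31) fell. With no filter on low reads, Stab2, Reln and Pkhd1 were not called. Nor was Stab2 called without replicate 1, 2 or 3, Reln without replicate 2 or 3, or Pkhd1 without replicate 1 or 2. The part of these markers and their cells in the results below was not tested. In bulk RNA, fewer cells of a type and less RNA per cell cannot be told apart.

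In short, Aox3 was below the Control range in each TNF library while its neighbour Aox1 rose slightly, Xdh was nearly level, Fmo5 and Fmo1 were lower, and Fmo2 and Fmo4 were near their Control means. The blocked fit put 3 of the 8 genes lower (Aox3, Fmo5 and Fmo1) and 2 higher (Aox1 and Mocos), where it put 11.2% of all tested genes lower and 9.4% higher. The unpaired fit called 0.431% of all tested genes, and of the 8 only Aox3. The 3 lower genes had no TNF library within the Control range, as did 6.66% of all tested genes in that direction. None of the 8 stood above the Control range in every TNF library, which 6.59% of the tested genes did. Nothing is read from the counts that hold Aox3 or Fmo5, since both were picked on these values.

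Aox3 and Aox1 are tandem copies on chromosome 1 of the mm10 build, both on the plus strand, and each was counted over its whole span. Aox1 spans 58029969 to 58106410, and Aox3 begins 6725 bases further on and spans 58113136 to 58200452. The stretches upstream of the pair are shown because Aox3 was lower with TNF while the mean of its neighbour Aox1 was not. Each is given 5′ to 3′ on the plus strand from 250 to 51 bases before the gene's start, from RefSeq on build GRCm38.p6, at chr1:58029719-58029918 for Aox1 and chr1:58112886-58113085 for Aox3; capitals mark a GC box core.
Aox1: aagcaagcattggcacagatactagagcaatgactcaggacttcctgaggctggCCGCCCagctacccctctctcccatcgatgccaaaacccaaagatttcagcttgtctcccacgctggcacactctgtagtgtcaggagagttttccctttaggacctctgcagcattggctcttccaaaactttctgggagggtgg
Aox3: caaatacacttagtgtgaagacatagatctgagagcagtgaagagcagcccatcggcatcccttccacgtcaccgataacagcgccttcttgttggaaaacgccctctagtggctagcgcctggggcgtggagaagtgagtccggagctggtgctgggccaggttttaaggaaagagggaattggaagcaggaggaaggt

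The GC content of these windows was 53% for Aox1 and 54% for Aox3. Of 8 short motifs searched on both strands, only the GC box core CCGCCC had a match, 1 in the Aox1 window, beginning 196 bases before the start, and none in that of Aox3. Of the 32851 promoter windows of the same length, 24.6% held it. The other 7 had no match in either window: the C/EBP core TTGCNNAA (in 8.11% of all windows), the glucocorticoid receptor core AGAACA (13.2%), the nuclear receptor core AGGTCA (11.4%), the antioxidant response element core TGACNNNGC (7.66%), an NF-κB core GGANTTTCC (0.868%), the HNF1 core GTTAAT (5.33%) and an HNF4 site CAAAGTCCA (0.295%). None of these motifs contains another. A missing match says only that these letters are not in this window.

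Aox3, the aldehyde oxidase gene that mouse liver is known for, stood at 83.9, 84.6 and 74.2 CPM in Control 1, 2 and 3. In TNF 1, 2 and 3 it stood at 40.1, 40.3 and 31.9 CPM. The groups were far apart, and within each the third replicate was the lowest. The means were 80.9 ± 5.81 and 37.4 ± 4.80 CPM (SD, n = 3), so the TNF level was 46.3% of Control. The log2 difference was -1.10 (blocked SE 0.05), with -1.05, -1.05 and -1.19 in the 3 pairs, and 13 of the 12293 tested genes had a lower one.

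Aox1, the neighbouring aldehyde oxidase, stood at 198, 179 and 166 CPM in Control 1, 2 and 3 and at 206, 207 and 187 CPM in TNF 1, 2 and 3. Each TNF library was above its same-numbered Control, but the ranges overlapped. Aox1 rose by 0.14 on the log2 scale (blocked SE 0.04), from 181 ± 16.1 to 200 ± 11.6 CPM (SD, n = 3). For this gene limma gave an adjusted p of 0.799 without the block and 0.0110 with it. The blocked call was lost without replicate 2 (adjusted p 0.0905) and with no filter on low reads (0.0528).

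The makeup of the pair was also compared within each library, and Aox3 held a smaller share in all 3 TNF libraries. Per kb of exon, Aox3 made up 25.6%, 27.8% and 26.7% of the sum of Aox1 and Aox3 in Control 1, 2 and 3 and 13.7%, 13.7% and 12.2% in TNF 1, 2 and 3. This share does not depend on the scaling between libraries. It is approximate, since reads over introns were counted too and exons made up 5.79% of the Aox1 span and 6.22% of the Aox3 span. The sum itself was 55.8 ± 4.52 CPM per kb of exon in Control and 52.1 ± 3.51 with TNF (SD, n = 3), ranges that overlapped. How reads that match both copies were assigned is not given in the sources used here, so levels of these similar genes are uncertain to that extent.

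**Figure D1:**
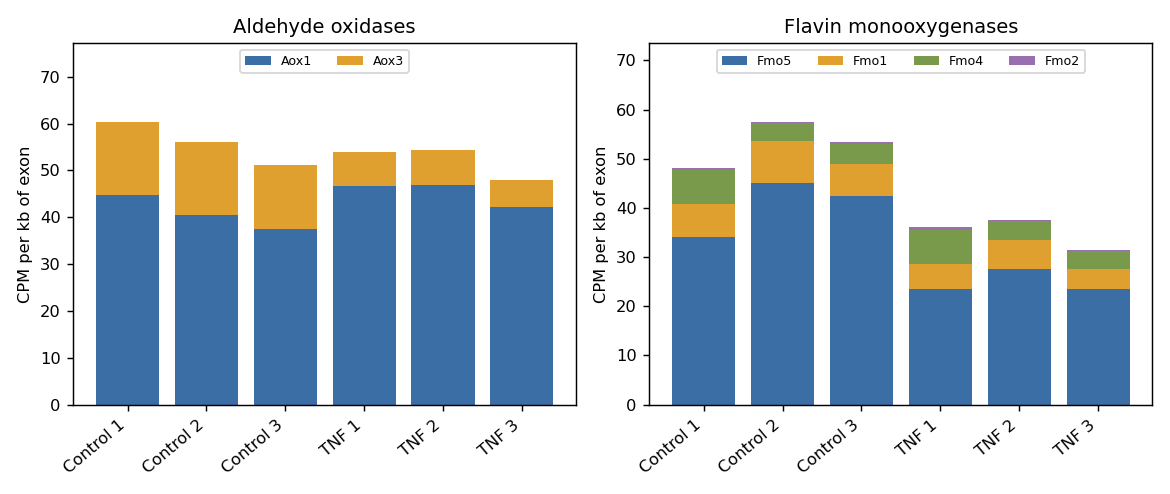
Stacked bars give the level of each gene per library as CPM per kb of exon, with the aldehyde oxidases Aox1 and Aox3 on the left and the 4 flavin monooxygenases on the right. The Aox3 segment was smaller in the TNF libraries (13.2% of the pair against 26.7%), and the flavin monooxygenase bars were shorter in all 3 of them. Reads over introns were counted too, so levels per kb of exon are approximate.

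The remaining aldehyde oxidase genes of the cluster were barely present. Aox2 had 14 to 25 reads per library and stood at 1.09 ± 0.133 CPM in Control and 0.757 ± 0.134 with TNF (SD, n = 3), and limma's adjusted p was 0.834 without and 0.256 with the block. Aox4 had 7 reads over the 6 libraries and was not tested. Aox2 and Aox4 overlap a gene annotated on the other strand, and the strand setting of the counting is not given in the sources used here. Aox3 overlaps a snoRNA gene and Mocos an rRNA gene, both annotated on the other strand. Xdh overlaps a processed pseudogene annotated on its own strand. The part of these overlaps in the levels was not tested.

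Xdh, on chromosome 17 (73883895 to 73950196, minus strand), gave nearly the same level in both groups. It stood at 194, 161 and 163 CPM in Control 1, 2 and 3 and at 188, 155 and 174 CPM in TNF 1, 2 and 3. Replicate 1 was the highest in both groups and the ranges overlapped. The means were 173 ± 18.4 and 173 ± 16.4 CPM (SD, n = 3), and limma's adjusted p was 0.999 without and 0.996 with the block. The 95% interval of the log2 difference ran from -0.08 to 0.08 in the blocked fit and from -0.24 to 0.24 in the unpaired fit.

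Mocos, on chromosome 18, stood at 86.9, 74.0 and 66.2 CPM in Control 1, 2 and 3 and at 88.5, 89.4 and 84.9 CPM in TNF 1, 2 and 3. The TNF libraries lay close together, and Control 1 lay among them while Control 2 and 3 were below. Mocos rose by 0.22 on the log2 scale (blocked SE 0.05), with 0.03, 0.27 and 0.35 in the 3 pairs. For this gene limma gave an adjusted p of 0.638 without the block and 0.0103 with it. The blocked call was lost without replicate 2 (adjusted p 0.0594), without replicate 3 (0.0688) and with no filter on low reads (0.0779).

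Fmo5, a liver flavin monooxygenase that can also insert oxygen beside carbonyl groups, lies apart from the others on chromosome 3 (97628804 to 97655287, plus strand). It stood at 181, 240 and 225 CPM in Control 1, 2 and 3 and at 125.0, 147 and 125 CPM in TNF 1, 2 and 3. Control 1 was the lowest Control library and still above the highest TNF library. The means were 215 ± 30.7 and 132 ± 12.8 CPM (SD, n = 3), so the TNF level was 61.5% of Control. The log2 difference was -0.69 (blocked SE 0.05), with -0.53, -0.70 and -0.85 in the 3 pairs, and 61 of the 12293 tested genes had a lower one.

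Fmo1, Fmo2 and Fmo4 lie next to one another on chromosome 1, all on the minus strand, between bases 162793883 and 162898712. Fmo1, which oxygenates many amines and sulfides, stood at 23.1, 28.6 and 22.1 CPM in Control 1, 2 and 3 and at 17.4, 19.5 and 13.9 CPM in TNF 1, 2 and 3. The groups did not overlap. Fmo1 fell from 24.6 ± 3.48 to 16.9 ± 2.85 CPM (SD, n = 3), by 0.52 on the log2 scale (blocked SE 0.07), and limma gave an adjusted p of 0.313 without the block and 0.000160 with it. The blocked call held without each pair in turn, with a log2 change between -0.59 and -0.46.

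Fmo4, a less studied member of the family, stood at 18.5, 9.85 and 11.2 CPM in Control 1, 2 and 3 and at 18.6, 10.3 and 10.1 CPM in TNF 1, 2 and 3. It followed the replicate number and not the treatment: both replicate 1 libraries were above the other 4. The means were 13.2 ± 4.66 and 13.0 ± 4.85 CPM (SD, n = 3), and limma's adjusted p was 0.999 without and 0.878 with the block. The 95% interval of its log2 difference ran from -0.21 to 0.16 in the blocked fit and from -0.71 to 0.66 in the unpaired fit.

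Fmo2, best known from the lung, had 18 to 43 reads per library. It stood at 1.88, 0.910 and 1.36 CPM in Control 1, 2 and 3 and at 2.06, 0.966 and 0.986 CPM in TNF 1, 2 and 3, again highest in replicate 1. For this gene limma gave an adjusted p of 0.999 without the block and 0.879 with it, and the 95% interval of its log2 difference ran from -0.34 to 0.26 in the blocked fit and from -0.62 to 0.54 in the unpaired fit. Both replicate 1 libraries, where Fmo4 and Fmo2 were highest, had the lowest summed hepatocyte markers in their group, a sum that is mostly Alb. They also had the lowest summed stellate and endothelial markers in their group. The part of these markers in the Fmo levels was not tested.

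The related genes Fmo6 and Fmo9 had 1 and 0 reads over the 6 libraries. Neither was tested, and a library with 0 reads allows up to 0.124 to 0.166 CPM, counting error only.

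**Figure D2:**
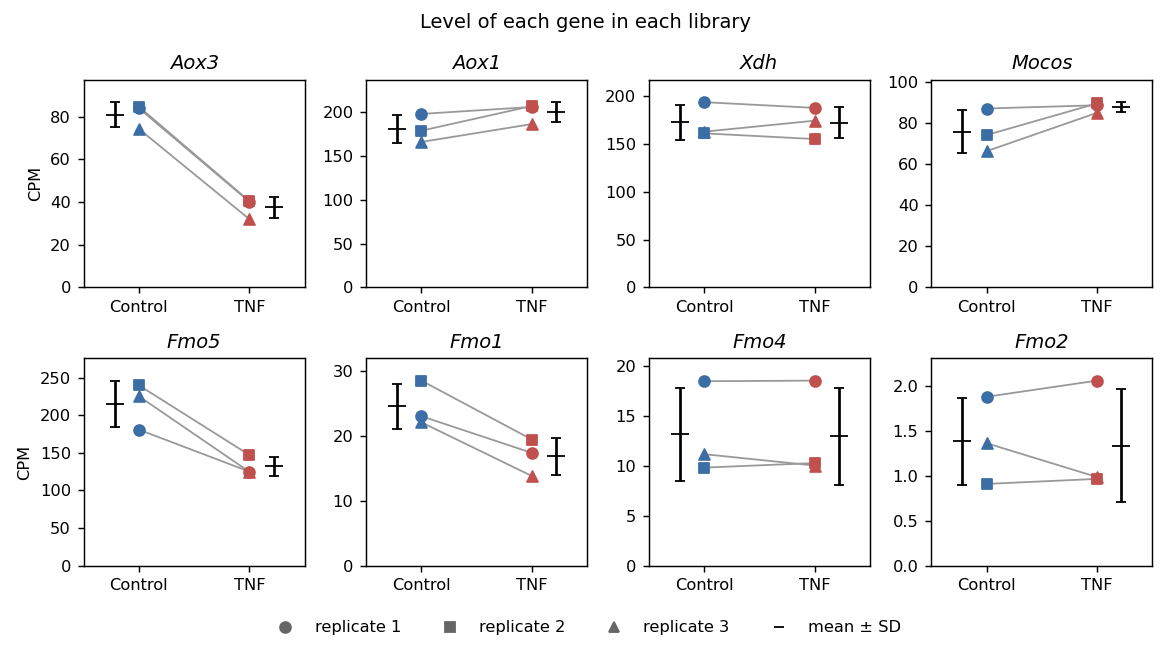
Points give the CPM of each gene in each library, with lines joining Control and TNF libraries of the same replicate number and bars for the mean ± SD of 3 libraries; each vertical axis starts at 0. Aox3, Fmo5 and Fmo1 were lower in every TNF library, whereas Fmo4 and Fmo2 were highest in replicate 1 of both groups.

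The order of levels was compared per kb of exon, with exon lengths from GENCODE M21. This is approximate, since the authors counted reads over introns as well. In Control, Aox1 (40.9 ± 3.64 CPM per kb of exon), Fmo5 (40.5 ± 5.77) and Xdh (37.5 ± 3.99) led and overlapped one another. Mocos (26.1 ± 3.61), Aox3 (14.9 ± 1.07) and Fmo1 (7.23 ± 1.02) came next, each below the lowest library of the gene before it. Fmo4 (4.91 ± 1.74) overlapped Fmo1, and Fmo2 (0.313 ± 0.110) was far below both. With TNF, Fmo5 stood at 24.9 ± 2.41 CPM per kb of exon, below every library of Mocos (29.2 to 30.8), and Fmo1 (4.97 ± 0.836) and Fmo4 (4.84 ± 1.81) had nearly the same mean.

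The 4 flavin monooxygenases together came to 53.0 ± 4.64 CPM per kb of exon in Control and 35.0 ± 3.11 with TNF (SD, n = 3). Fmo5 made up 70.7%, 78.6% and 79.4% of that sum in Control 1, 2 and 3 and 65.3%, 73.9% and 74.5% in TNF 1, 2 and 3. The share was lower in TNF in each pair, but the ranges overlapped. The ratio of Fmo5 to Fmo1 reads was 8.79 ± 1.22 in Control and 7.91 ± 0.965 with TNF, also overlapping.

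**Figure D3:**
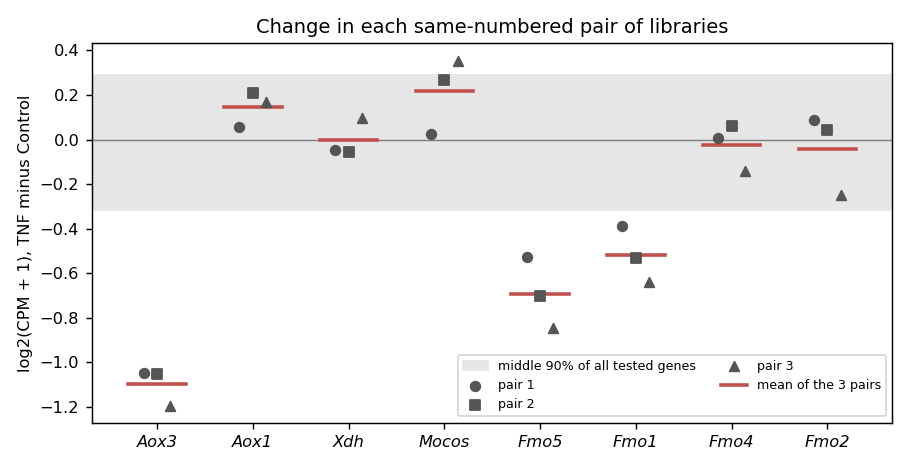
Points give the change of each gene on the log2(CPM + 1) scale in each same-numbered pair of libraries, TNF minus Control. Red lines are the mean of the 3 pairs. The grey band holds the middle 90% of all tested genes by that mean (-0.31 to 0.29), and no such band was drawn for single pairs. Aox3, Fmo5 and Fmo1 lay below the band in all 3 pairs, and in Mocos pair 1 (0.03) stood well below the other pairs.

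The genes that supply these enzymes were next described from lists that were, like the 8 genes, drawn up with earlier results known. The median log2 change over all tested genes was -0.01. In the blocked fit 11.2% of all tested genes fell and 9.4% rose, the shares that belong beside each list count below. Of 9 tested genes for the molybdenum cofactor and other molybdenum enzymes, 1 rose, 2 fell and 6 did not pass, with a list median of -0.04. Gphn, which encodes gephyrin, the protein that inserts molybdenum into the cofactor, rose from 80.8 ± 8.27 to 89.8 ± 7.25 CPM (log2 0.15), not called without replicate 3 or with no filter. The amidoxime-reducing enzymes Marc1 and Marc2 fell, Marc1 from 72.2 ± 11.2 to 47.7 ± 4.32 CPM (log2 -0.58) and Marc2 from 176 ± 11.7 to 147 ± 13.7 CPM (log2 -0.26). The cofactor synthesis genes Mocs1, Mocs2 and Mocs3, named for their role, had log2 differences of 0.05, -0.04 and 0.05 and did not pass either fit.

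In purine breakdown, 1 upstream gene rose, and genes both upstream and downstream of Xdh fell. Pnp, which releases hypoxanthine and guanine from their nucleosides, rose from 56.6 ± 4.39 to 78.2 ± 4.30 CPM (log2 0.46). Urad and Uox, which act downstream of uric acid, fell, Urad from 22.7 ± 2.27 to 14.8 ± 1.70 CPM (log2 -0.59) and Uox by 0.41 on the log2 scale in the mean of the pairs, with 358 ± 133 and 267 ± 88.2 CPM. The nucleotidase gene Nt5e, upstream of Xdh, fell by 0.30, not called without replicate 1 or with no filter. Of 13 tested members 1 rose, 5 fell and 7 did not pass, with a median of -0.14, and 3 were lower without replicate 3 or with no filter.

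The genes that supply FAD and NADPH, the cofactors of these enzymes, showed no shared direction. None of the 4 riboflavin and FAD genes passed the blocked or unpaired limma fit or limma-voom, though before adjustment 1 was higher in the blocked fit (p under 0.05). Of 7 NADPH genes 1 rose and 3 fell, with a median of -0.06, and 2 rose without replicate 1, 2 fell without replicate 2 and 2 fell with no filter. Pgd of the pentose phosphate pathway rose from 876 ± 178 to 1123 ± 117 CPM (log2 0.37), while Nnt, the mitochondrial transhydrogenase, fell from 89.8 ± 16.0 to 71.5 ± 10.2 CPM (log2 -0.32).

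Among 7 genes that handle methylamines and choline, neighbours of flavin monooxygenase substrates, 4 fell and 3 did not pass, with a median of -0.22. Chdh, choline dehydrogenase, fell by 0.51, and Dmgdh and Sardh, the dehydrogenases of dimethylglycine and sarcosine, fell by 0.26 and 0.22.

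Of 14 transcription factors and receptors known to drive xenobiotic genes, 8 fell, 1 rose and 5 did not pass, with a median of -0.25. Over all tested genes 11.2% fell and 9.4% rose. Nr1i3 (CAR) went from 12.9 ± 4.60 to 4.48 ± 1.75 CPM (log2 -1.33), Onecut1 from 7.10 ± 2.29 to 3.52 ± 0.537 CPM (log2 -0.81), Nr1h4 (FXR) by -0.53 and Nr1i2 (PXR) by -0.51 on the log2 scale. The member that rose was Nfe2l2, which encodes NRF2, named after its value was seen (249 ± 17.9 to 293 ± 34.9 CPM, log2 0.23). Of 7 NRF2 targets 6 rose and none fell, with a median of 0.44; before adjustment 0 were lower (p under 0.05), and 7 were higher by limma-voom with the block. Slc7a11 rose by 0.56, Hmox1 by 0.54, Srxn1 by 0.44 and Gsr by 0.44. Replicate 1 was the highest in both groups for these 7 genes summed, at 13733 CPM in Control and 15223 with TNF, against 7270 to 10854 CPM in the other 4 libraries.

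**Figure D4:**
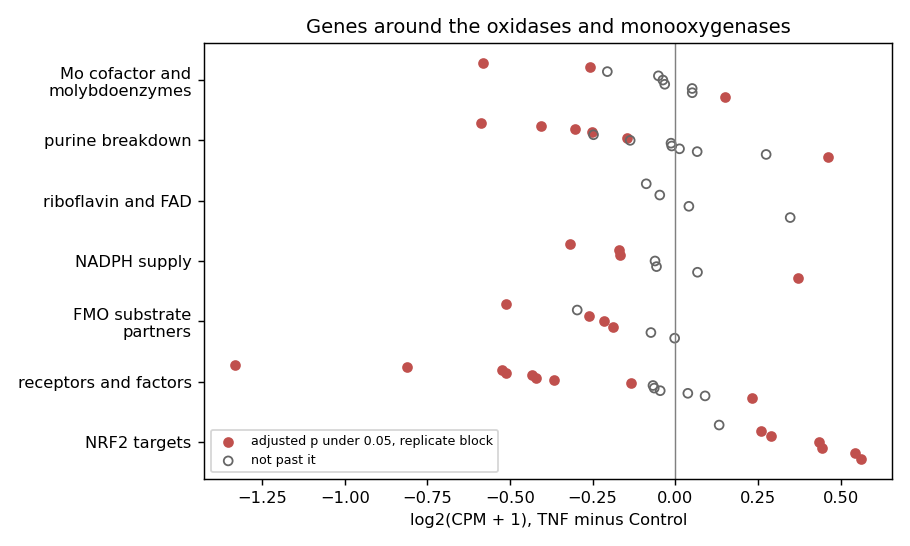
Points give the log2(CPM + 1) change of each tested gene, TNF minus Control, by list; filled points had an adjusted p under 0.05 in the blocked limma fit and open points did not. Receptors and factors lay mostly to the left (8 of 14 fell), and NRF2 targets to the right (6 of 7 rose). Over all tested genes 11.2% fell and 9.4% rose.

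In the unpaired fit none of these list genes passed, the TNF response genes apart (7 of 8); among receptors and factors 6 were lower before adjustment (p under 0.05), both there and in unpaired limma-voom, which called none of the 14. The genes whose levels followed Aox3 most closely over the 6 libraries were Hmox2 (Pearson r 0.995), Hacl1 (0.994) and Akr7a5 (0.993). For Fmo5 they were Proc (0.992), Nr1i3 (0.989) and Atp5e (0.989). These correlations describe 6 libraries that share the treatment contrast and carry no test, and all 6 genes had lower means with TNF.

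In the authors' deposited table, 5 of the 8 genes had an adjusted p under 0.05, as did 15.2% of the 19764 genes listed there. That share is over all listed genes, low ones included, whereas the 8 all passed the filter on low reads. Nothing is read from this count, since Aox3 and Fmo5 were picked on these values. The 5 were Aox3, Fmo5, Fmo1, Aox1 and Mocos, with log2 fold changes of -1.12, -0.70, -0.54, 0.15 and 0.22 in the authors' deposited table.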

How the data were processed

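PolyA RNA of 6 libraries was sequenced paired-end and aligned to mm10 with STAR 2.6.1a (submitters' processing notes). The authors listed genes with RefSeq identifiers. What counted the reads, on which annotation release and strand, is not given in the sources used here. Deposited per-library values were log2 CPM with a prior added by the authors (floor -3.35). Subtracting it left whole multiples of a step per library for 100.0% of 118584 values (relative tolerance 1e-06), so reads were recovered and the authors' scaling, 0.971 to 1.04 times that of library totals, was kept. The authors' log2 fold change, likelihood ratio score, p-value and adjusted p-value per gene were deposited without a stated model. In 85.0% of genes the counted length was the whole span, introns included. Table starts were printed from base 1.

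A gene was tested with 10 reads (at the median library's size) in at least 3 libraries and 15 overall. Log2(CPM + 1) was fitted with limma 3.58.1 in R 4.3.3 (trended prior variance, group only, two-sided, Benjamini-Hochberg), a fit tested on simulated data. Since no deposited column holds raw counts, the planned count test gave way to limma-voom on the recovered reads as an alternative. Same-numbered libraries' deviations from group means correlated at 0.78, 0.79 and 0.79 across genes, others between -0.47 and -0.34, so the numbers in the titles pair the libraries, although the labels name no shared animal or day; the blocked fit stands beside the unpaired one where the call differs. Blocked SEs lean on variance shared between genes. Members, lists and motifs were chosen with earlier results of these data known. All 8 members were named; of each list, at most 4 genes past a fit's threshold, largest change first, plus cluster neighbours. Some genes under this rule are not reported here. Members in RefSeq's promoter table (GRCm38.p6) numbered 5.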

Additional observations from a re-analysis of the deposited data

How the results depend on the processing

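Block combinations with other pseudocounts, filters and scalings, and list counts under alternatives, were chosen after seeing the data. With the replicate block the 53 genes called (44 higher, 9 lower) became 2530 (1156 and 1374), and Aox1 (0.14), Mocos (0.22), Fmo1 (-0.52) and Fmo5 (-0.69) passed. Without a filter on low reads, which adds tested genes, the unpaired fit called 31 (28 and 3) and the blocked fit 911 lower, and with the block Aox1 (0.14) and Mocos (0.22) did not pass. Scaling by library totals let Fmo5 pass unpaired (log2 -0.686). The sign turned for genes near 0: Xdh was 0.0063 under library totals and 0.0098 under median-of-ratios scaling, blocked or not, and Fmo4 was 0.024 with limma-voom. Leaving out 1 library, with fewer samples, gave 9 to 30 genes (8 to 25 higher, 0 to 5 lower). Without 1 library the unpaired log2 differences ran from -1.158 to -0.989 for Aox3 (not called without Control 2, Control 3 or TNF 2), -0.8124 to -0.61 for Fmo5 (called without Control 1), 0.08447 to 0.211 for Aox1 and 0.125 to 0.3192 for Mocos (both lowest without Control 3), -0.06364 to 0.08528 for Xdh, -0.2507 to 0.1054 for Fmo2 and -0.2951 to 0.2283 for Fmo4. Without 1 pair the blocked ones ran from 0.1114 to 0.1885 for Aox1 (not called without replicate 2), 0.1475 to 0.3116 for Mocos (0.1899 without replicate 2; not called there or without replicate 3), -0.0496 to 0.02649 for Xdh (0.022 without replicate 1), -0.1046 to 0.06444 for Fmo2 and -0.0684 to 0.03209 for Fmo4. Fmo1 passed in 9 of 9 blocked alternatives. Of 14 alternatives to the unpaired fit it passed in 1, the block itself. Without 1 library its unpaired log2 difference ran from -0.6221 to -0.3903, and it was called in 0 of 6 such fits. The calls of Aox3 and Fmo5, picked on these values, support nothing. Except as stated, the cause of these changes was not tested. Depth limits Fmo2 and the genes under the filter.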
